A study of Mus musculus with 18 samples.

Results

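Retinas of Balb/cJ mice that had been detached by injecting 1 uL of saline under the retina were compared at 7 d and at 2 h after the injection, to describe what differs between the late and the earliest sampled state of a detached retina. The members are the arrays titled as saline-detached at either time, 3 at 7 d and 3 at 2 h, 6 of the 18 arrays in the series. Every array is an Affymetrix hybridization of total RNA from a pool of more than 5 retinas, and the study counts its 3 pools a group as biological replicates. The other 12 arrays are saline-detached retina at 24 h and retina detached with 10 uM INS37217 in saline, also called denufosol, an agonist of the P2Y2 nucleotide receptor given to speed recovery, at 2 h, 24 h and 7 d. All groups share the strain, the needle injection and the fluid under the retina, and no array of uninjected retina was analysed here, so each value sets 7 d against 2 h and neither against an intact retina. Per the study's design text, the retina lay flat again by 24 h but was misfolded, and by 7 d the misfolding had resolved.

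Detachment separates the photoreceptor outer segments from the pigment epithelium that feeds them, recycles their visual pigment and clears their shed discs. The injured retina answers within hours with immediate early transcription factors and chemokines, which are made briefly and then shut off by feedback proteins, and over days Mueller glia, the radial glia of the retina, become reactive while microglia and blood-derived macrophages gather near the photoreceptors. Fewer cells of a type and less RNA per cell cannot be told apart in RNA from whole retina.

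Signals are the authors' log2 values after RMA, a method that summarises the probes of a probe set into 1 number an array, and differences are on the log2 scale unless given as a fold. A probe set passed where the adjusted p of limma's moderated test, with the replicate number as a block and Benjamini-Hochberg adjustment over all 22626 probe sets, was under 0.05. The source name of the 7 d replicate 2 array says 2 hours, against its title. Its correlation over all probe sets was 0.9941 with 7 d replicate 3 and 0.9945 with the INS37217 7 d array of the same number, but between 0.9472 and 0.979 with the 2 h arrays, and it is kept as 7 d with counts given without it. Replicate 1 stood apart at both times: it correlated at 0.9598 and 0.9683 with the other 7 d arrays, which correlated at 0.9941, and at 0.9783 and 0.9756 with the other 2 h arrays, which correlated at 0.9966. RNA integrity moved with time as well. The log2 gap between 3' and 5' beta-actin probe sets, which widens as RNA degrades, was 0.65 ± 0.05 at 7 d and 1.04 ± 0.093 at 2 h (SD, n = 3 each), a difference of -0.39, and the gap for Gapdh differed by -0.24. In both the groups did not overlap, and the exact two-sided permutation p of 0.1 is the smallest that 3 against 3 arrays allow. The part of RNA integrity in the differences below was not tested, although counts from a fit with the actin gap as a covariate are given beside most of the gene groups. Because the gap did not overlap between the times, that fit can hardly tell the gap from time. A call lost in it is therefore no measure of that part.

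Of 22626 probe sets, 4946 (21.9%) passed, 2776 of them higher (12.3%) and 2170 lower (9.59%) at 7 d, and the median change was -0.01 on the log2 scale. Most changes were small: 385 probe sets (1.7%) passed with a change of at least 1, of which 213 were higher (0.941%) and 172 lower (0.76%). Without the replicate block 1231 passed (5.44%), 611 higher (2.7%) and 620 lower (2.74%), without 7 d replicate 2 3639 passed (1776 higher and 1863 lower), and with the actin gap as a covariate 515 passed (261 higher and 254 lower). Of the 172 large decreases, 167 also passed without the block and 143 with the actin covariate, and of the 213 large increases 139 and 111 did. Gene lists are counted below with 1 probe set per gene, the one of highest mean signal, and over all 12393 genes so measured 21% passed, 10.5% as higher and 10.5% as lower. The median change of a list could stay while its count fell with the actin covariate. It was 0.70 without and 0.80 with the covariate for microglia and macrophage genes, and 0.91 and 0.94 for lens genes. For reactive glia genes it was 0.39 and 0.20. In other lists it turned, from -0.10 to 0.15 for splicing factor genes and from 0.08 to -0.07 for bipolar genes. Since that fit can hardly tell the gap from time, a median that stayed is likewise no measure of the part of RNA integrity.

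**Figure D1:**
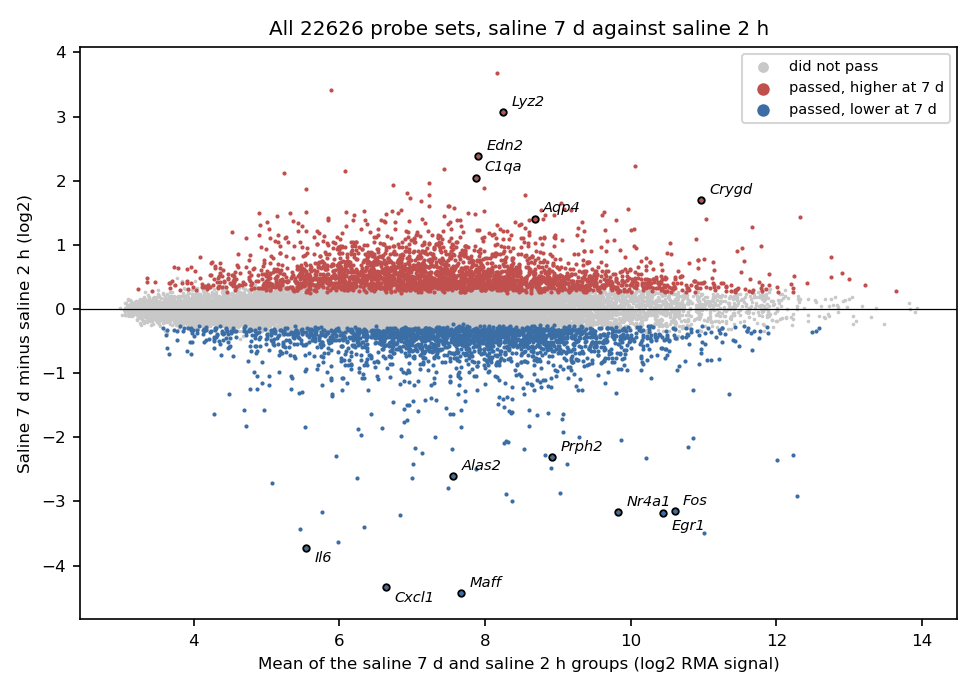
Change between saline-detached retina at 7 d and at 2 h (log2, 7 d minus 2 h) against the mean of both groups (log2 RMA signal) for 22626 probe sets, coloured where the test was passed and genes of interest named. The changes beyond 3 in size are mostly decreases, led by Maff at -4.43 and Cxcl1 at -4.34. On the other side Lyz2 lies at 3.07, and Lyz1 probe sets without a label lie farther out at 3.68 and 3.41.

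Immediate early genes had the lowest median of the 33 gene lists. Of 34 measured, 27 fell, 0 rose (also 0 at an unadjusted p under 0.05) and the median change was -1.31, against -0.02 over all genes. The list counted 24 lower without the block, 26 without 7 d replicate 2 and 22 with the actin covariate. Maff, a small Maf transcription factor, had log2 signals of 5.81, 5.23 and 5.34 at 7 d, against 9.56, 9.99 and 10.12 at 2 h. Its decrease was 4.43 ± 0.16 (SE), or 21.6-fold (adjusted p = 2.5e-14). Fos, a subunit of the AP-1 factor, had 8.61, 9.2 and 9.27 at 7 d, against 11.94, 12.35 and 12.24 at 2 h, and fell by 3.15 ± 0.11 (adjusted p = 2.6e-14). Fosb, its relative, had 5.91, 5.02 and 4.74 at 7 d, against 9.27, 8.1 and 7.92 at 2 h, with replicate 1 the highest at both times. Egr1, a zinc finger factor induced by growth signals, had 8.8, 8.84 and 8.95 at 7 d, against 12.26, 11.85 and 12.01 at 2 h. Nr4a1, an orphan nuclear receptor, had 8.34, 8.08 and 8.3 at 7 d, against 11.61, 11.22 and 11.41 at 2 h. Atf3, a stress-induced factor of the ATF family, fell by 2.87 ± 0.09, and Zfp36, which destabilises cytokine messages, fell by 2.88 ± 0.13. Arc, Btg2, Dusp1, Egr2, Jun, Junb and Klf4 each fell, with changes between -1.84 (Klf4) and -2.48 (Jun). The 7 members that did not pass, Dusp2, Dusp6, Egr3, Egr4, Fosl2, Klf2 and Nr4a3, had values between -0.36 and -0.01.

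Secreted signals of inflammation fell with them. Of 27 cytokine, chemokine and adhesion genes 15 fell and 2 rose, with a median of -0.50. The list had 12 lower and 1 higher without the block, and 8 lower with the actin covariate. Cxcl1, a neutrophil attractant, had log2 signals of 4.72, 4.46 and 4.23 at 7 d, against 8.44, 8.85 and 9.13 at 2 h, a decrease of 4.34 ± 0.17 or 20.2-fold (adjusted p = 9.4e-14). Cxcl2, which acts on the same receptor, had 4.37, 4.06 and 4.05 at 7 d, against 7.13, 8.37 and 7.86 at 2 h. Il6, a cytokine that signals through gp130, had 3.59, 3.5 and 3.96 at 7 d, against 6.71, 7.85 and 7.64 at 2 h. All 3 lay near the low end of the scale at 7 d, where RMA signals are compressed and fold changes understated. Ccl2, which draws monocytes, had 5.96, 6.1 and 6.22 at 7 d, against 8.43, 8.99 and 9.23 at 2 h, and fell by 2.79 ± 0.12. Lif, another gp130 cytokine, fell by 2.41 ± 0.11 at its probe set of highest signal, while its other probe set changed by -0.21. Ptx3, a secreted pattern recognition protein, had 4.4, 3.99 and 4.15 at 7 d, against 7.45, 7.33 and 7.27 at 2 h. Ptgs2, the inducible prostaglandin synthase, fell by 3.43 ± 0.13 at one probe set and changed by -1.3 ± 0.15 at the other. Nfkbia, the inhibitor that NF-kB itself induces, fell by 1.26 ± 0.09 with all 4 of its probe sets lower. The 2 members that rose were Cxcl16, a membrane-bound chemokine, by 0.47 ± 0.10 and Vcam1, an adhesion molecule of vessels, by 0.50 ± 0.13 (adjusted p = 0.0066, and 0.28 without the block).

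**Figure D2:**
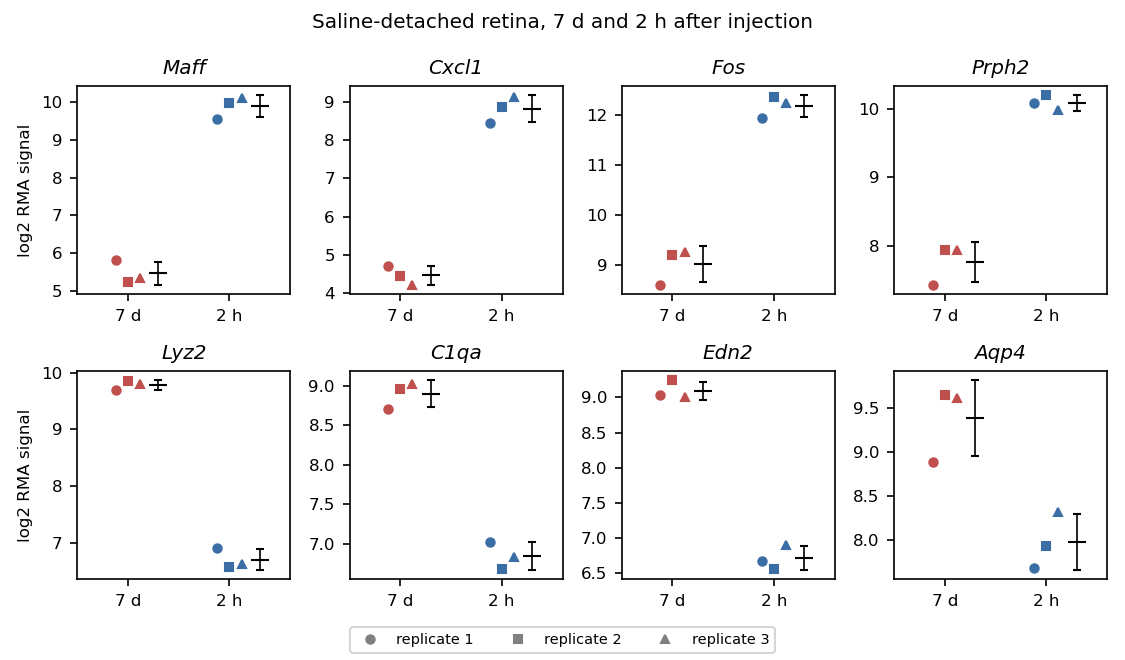
Log2 RMA signal of 8 genes in each array of saline-detached retina, 7 d left of 2 h, with points shaped by replicate number and bars for the mean and SD of 3 arrays. In every panel the 7 d and 2 h arrays do not overlap: Maff, Cxcl1, Fos and Prph2 are lower at 7 d, and Lyz2, C1qa, Edn2 and Aqp4 higher. Groups apart were a condition for naming genes by largest change, so for genes so named the lack of overlap was set in advance.

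Promoter sequences of the genes with the largest decreases are shown because these genes fell together. They are taken from RefSeq on GRCm38.p6, on the strand of the gene, and read toward the gene's start, at chr5:90891105-90891244 for Cxcl1, chr5:90903759-90903898 for Cxcl2, chr5:30012974-30013113 for Il6 and chr15:79347380-79347519 for Maff, all on the plus strand. Capitals mark a match to the NF-kB consensus in the chemokine and cytokine promoters and the cyclic AMP response element TGACGTCA in Maff.
Cxcl1: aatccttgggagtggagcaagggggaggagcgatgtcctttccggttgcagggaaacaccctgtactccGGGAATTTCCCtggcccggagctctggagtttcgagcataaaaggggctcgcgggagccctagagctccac
Cxcl2: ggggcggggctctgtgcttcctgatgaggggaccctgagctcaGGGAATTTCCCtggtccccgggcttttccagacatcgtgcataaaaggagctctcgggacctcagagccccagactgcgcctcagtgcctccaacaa
Il6: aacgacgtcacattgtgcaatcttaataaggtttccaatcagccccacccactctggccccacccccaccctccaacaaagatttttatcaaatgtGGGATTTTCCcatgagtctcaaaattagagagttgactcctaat
Maff: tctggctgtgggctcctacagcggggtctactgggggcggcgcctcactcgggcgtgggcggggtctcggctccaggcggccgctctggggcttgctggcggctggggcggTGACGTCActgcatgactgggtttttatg
In Cxcl1 and Cxcl2 the capitals span 2 overlapping matches on opposite strands. Searched on both strands in the 250 bases before the start, the NF-kB consensus was found in 5 of the 11 fallen cytokine genes with a promoter in the table (45.5%: Cxcl1, Cxcl10, Cxcl2, Il6 and Nfkbia), in 4 of the 21 such immediate early genes (19.0%: Fos, Fosb, Ier3 and Maff) and in 1204 of all 27025 genes with a promoter (4.46%). A gene counted if any of its promoters matched, and the 27025 were not limited to genes measured here. TGACGTCA was found in 3 of the 21 (14.3%: Btg2, Dusp1 and Maff), in 0 of the 11 and in 478 of the 27025 genes (1.77%). A match in these windows is a description of the sequence and no measure of binding.

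Most microglia and macrophage genes were higher at 7 d. Of 24 microglia and macrophage genes, 16 rose and 1 fell, with a median change of 0.70, and the mean log2 signal of the list was 6.99 to 7.08 in the 7 d arrays, against 6.24 to 6.37 in the 2 h arrays. The list counted 11 higher without the block, 14 without 7 d replicate 2 and 6 with the actin covariate. Lyz2, the lysozyme of macrophages, had 9.7, 9.85 and 9.79 at 7 d, against 6.92, 6.59 and 6.63 at 2 h, a rise of 3.07 ± 0.13 or 8.38-fold (adjusted p = 4.1e-13). The 2 Lyz1 probe sets that rose most, by 3.68 ± 0.11 and 3.41 ± 0.19, are of a type that can also bind related transcripts such as Lyz2, and the third Lyz1 probe set changed by 0.23 (adjusted p = 0.13). Csf1r, the receptor that microglia and macrophages need to survive, had 9.34, 10.11 and 10.13 at 7 d, against 8.32, 8.29 and 8.29 at 2 h, with 7 d replicate 1 nearest to the 2 h arrays. Tyrobp, a signalling adaptor of microglia, had 7.61, 8.1 and 7.81 at 7 d, against 6.42, 6.04 and 5.87 at 2 h, and rose by 1.73 ± 0.19. Ctss, a lysosomal protease, rose by 1.54 ± 0.15 and Cd68, a lysosomal membrane protein of phagocytes, by 1.39 ± 0.20. P2ry12, a purine receptor of resting microglia, had 5.78, 6.22 and 6.32 at 7 d, against 5.07, 4.6 and 4.62 at 2 h. Cd14, the co-receptor for bacterial lipopolysaccharide, went the other way and fell by 1.17 ± 0.11. Members with values that did not pass, among them Itgam, Mrc1 and Tmem119, ranged from -0.10 to 0.25. Of 10 neutrophil genes 0 rose and 2 fell, and of 9 lymphocyte genes 0 rose and 1 fell, with the same counts in limma at an unadjusted p under 0.05. S100a9, a neutrophil protein, fell by 0.94 ± 0.22 (adjusted p = 0.0031, and 0.052 without the block).

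Of 14 complement genes 7 rose and none fell (5 without the block and 3 with the actin covariate), with a median of 0.34. C1qa, a chain of the C1q recognition molecule, had 8.71, 8.96 and 9.03 at 7 d, against 7.03, 6.68 and 6.83 at 2 h, a rise of 2.05 ± 0.13 or 4.15-fold (adjusted p = 2e-10). C1qc had 8.22, 8.25 and 8.16 at 7 d, against 6.55, 6.1 and 6.07 at 2 h. C1qb rose by 2.18 ± 0.19 at one probe set but by 0.47 ± 0.11 at its brightest. Serping1, the inhibitor of the C1 proteases, had 7.81, 8.36 and 8.42 at 7 d, against 6.66, 6.87 and 7.02 at 2 h. Of 26 interferon and antigen presentation genes 10 rose and 4 fell (3 and 4 without the block, 3 and 1 with the actin covariate). B2m, the shared light chain of class I molecules, rose by 1.23 ± 0.11, Ifit3, an antiviral protein, by 0.79 ± 0.12 (adjusted p = 0.18 without the block), and Psmb8, an immunoproteasome subunit, by 0.73 ± 0.13. Irf1, a factor that starts the interferon response, fell by 1.10 ± 0.11, and the interferon-induced GTPase Irgm1 fell by 0.81 ± 0.18.

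Mueller glia and reactive glia genes split. Of 22 reactive glia genes 11 rose and 6 fell (6 and 3 without the block, 4 and 2 with the actin covariate), with a median of 0.39. Edn2, an endothelin made by stressed photoreceptors that acts on Mueller glia, had 9.03, 9.24 and 9.01 at 7 d, against 6.68, 6.57 and 6.9 at 2 h, a rise of 2.38 ± 0.12 or 5.19-fold (adjusted p = 2.6e-12). A2m, a broad protease inhibitor, had 7.89, 8.59 and 8.48 at 7 d, against 6.58, 7.19 and 7.33 at 2 h. Lcn2, an iron-siderophore carrier of reactive glia, had 8.61, 8.67 and 8.73 at 7 d, against 7.71, 7.34 and 7.49 at 2 h, and rose by 1.16 ± 0.11. Fgf2, a survival factor for photoreceptors, had 5.01, 6.06 and 5.89 at 7 d, against 4.6, 4.42 and 4.75 at 2 h, with 7 d replicate 1 close to the 2 h arrays (adjusted p = 0.0021, and 0.13 without the block). Gfap, the intermediate filament by which reactive Mueller glia are usually recognised, had 8.38, 7.73 and 7.72 at 7 d, against 7.95, 7.12 and 7.34 at 2 h. The groups overlapped, since replicate 1 was highest at both times, and the rise of 0.47 ± 0.11 within pairs (adjusted p = 0.0024) was not called without the block (adjusted p = 0.56). Socs3, the feedback inhibitor of gp130 signalling, had 7.19, 7.62 and 7.52 at 7 d, against 9.34, 9.84 and 9.72 at 2 h, and fell by 2.19 ± 0.10. Tnfrsf12a, the receptor of the cytokine TWEAK, fell by 1.41 ± 0.10 with no overlap of the groups.

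Of 16 genes of Mueller glia homeostasis 6 rose and 2 fell (3 and 1 without the block, 2 and 0 with the actin covariate), with a median of 0.16. Aqp4, the water channel of glial end feet, had 8.89, 9.65 and 9.61 at 7 d, against 7.68, 7.93 and 8.32 at 2 h, a rise of 1.41 ± 0.12 or 2.65-fold (adjusted p = 3.1e-08). At its other probe set the rise was 0.63 ± 0.11. Apoe, a lipid carrier also made by microglia, had 11.75, 12.11 and 12.17 at 7 d, against 10.96, 11.04 and 11.19 at 2 h. Slc1a3, the glial glutamate transporter, rose by 0.79 ± 0.10 (adjusted p = 5.1e-06, and 0.15 without the block), but only 1 of its 3 probe sets passed. Sox9, a transcription factor of Mueller glia, fell by 0.76 ± 0.13. Glul, which makes glutamine from glutamate, had 11.73, 11.44 and 11.2 at 7 d, against 11.49, 11.86 and 11.57 at 2 h, a difference of -0.18 ± 0.13 that did not pass (adjusted p = 0.39), while its other probe set rose by 0.62 ± 0.11. Rlbp1, the retinal-binding protein of the visual cycle, differed by 0.10 ± 0.10 (adjusted p = 0.54).

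Among photoreceptor genes the change of Prph2 stood out by size. Of 26 rod phototransduction and outer segment genes 7 fell and 0 rose (8 and 0 at an unadjusted p under 0.05; 1 without the block, 4 without 7 d replicate 2 and 1 with the actin covariate), with a median of -0.14. Prph2, the tetraspanin that shapes the rims of outer segment discs, had 7.44, 7.94 and 7.94 at 7 d, against 10.08, 10.19 and 9.98 at 2 h, a decrease of 2.31 ± 0.14 or 4.96-fold (adjusted p = 7.8e-11). The gene has 1 probe set on the array, and the other 6 members that fell had changes between -0.37 and -0.28. Rom1, the partner of Prph2 at the disc rim, differed by -0.09 ± 0.09 (adjusted p = 0.55). Gnat1, the alpha subunit of rod transducin, differed by -0.12 ± 0.12, Sag, rod arrestin, by 0.01 ± 0.08, and Rcvrn, the calcium sensor recoverin, by 0.02 ± 0.12. The mean log2 signal of the list was 11.21 to 11.26 at 7 d, against 11.34 to 11.5 at 2 h. Of 9 photoreceptor transcription factors 6 fell (1 without the block, 0 with the actin covariate), among them Esrrb by 0.82 ± 0.11 at its brightest probe set, whose other probe set rose by 0.65 ± 0.14. Mef2c fell by 0.73 ± 0.14 with all 5 probe sets lower, and Nrl, which sets rod fate, fell by 0.34 ± 0.10 (adjusted p = 0.018, and 0.071 without the block). Among 9 cone genes 1 fell and 2 rose, and without the block 0 did (1 and 2 at an unadjusted p). With the actin covariate 0 fell and 1 rose, with the same counts at an unadjusted p. Opn1sw, the short-wave opsin, had 10.61, 10.99 and 10.89 at 7 d, against 11.08, 11.15 and 11.37 at 2 h, and fell by 0.37 ± 0.11 (adjusted p = 0.018, and 0.22 without the block). Its other probe set changed by 0.07 ± 0.14 (adjusted p = 0.78). Opn1mw, the middle-wave opsin, differed by 0.12 ± 0.09 (adjusted p = 0.42), and Arr3, cone arrestin, by -0.03 ± 0.11 (adjusted p = 0.89).

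Inner retinal neuron genes passed in both directions, beside 21% of all genes, 10.5% as higher and 10.5% as lower. Of 11 bipolar genes 1 rose and 2 fell (1 and 0 without the block), and of 14 amacrine and horizontal genes 1 rose and 2 fell (1 and 0 without the block). Of 14 ganglion cell genes 1 rose and 1 fell (0 and 0 without the block, where 0 and 1 were past an unadjusted p). With the actin covariate limma made 0 calls in these 3 lists, and at an unadjusted p 1 bipolar gene was higher and 1 lower, 2 ganglion cell genes were higher, and 0 amacrine and horizontal genes were past it. Gad2, which makes the transmitter GABA, rose by 0.67 ± 0.13, and Gap43, a growth cone protein, by 0.48 ± 0.10 (adjusted p = 0.0018, and 0.62 without the block). Of 18 synaptic genes 3 rose and 5 fell (2 and 1 without the block, 1 and 0 with the actin covariate). Syt1, the calcium sensor of vesicle release, had 9.97, 10.71 and 10.83 at 7 d, against 8.49, 9.39 and 9.45 at 2 h, a rise of 1.39 ± 0.12, and its other probe set rose by 1.55 ± 0.10. Vamp2, a vesicle fusion protein, fell by 0.63 ± 0.13 at its brightest probe set and rose by 0.58 ± 0.15 at the other.

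Stress genes that passed were mostly lower. Of 21 heat shock and oxidative stress genes 8 fell and 0 rose (5 and 0 without the block). At an unadjusted p under 0.05 the counts were 9 and 3 with the block, and 6 and 0 without it. Srxn1, which repairs peroxiredoxins, had 7.88, 7.69 and 7.52 at 7 d, against 9.86, 9.94 and 10.09 at 2 h. Mt2, a metal-binding metallothionein, fell by 2.15 ± 0.10, Mt1 fell by 1.33 ± 0.12, and Bag3, a chaperone cofactor, fell by 1.44 ± 0.13. Of 18 genes of the integrated stress response and amino acid synthesis 8 fell and 2 rose (5 and 0 without the block), led by Cebpb, a factor shared with inflammation, at -2.49 ± 0.12. Of 16 cholesterol synthesis genes 6 fell and 0 rose (9 and 0 at an unadjusted p), but 1 passed without the block and 0 with the actin covariate. Hmgcs1, which makes the precursor of mevalonate, fell by 0.74 ± 0.13. Of 18 glycolysis and hypoxia genes 4 rose and 4 fell (2 and 3 without 7 d replicate 2, 0 and 3 without the block), with Adm, a hypoxia-induced peptide, at -1.05 ± 0.11. Mitochondrial respiratory chain genes had 4 of 19 higher and ribosomal protein genes 5 of 19, at medians of 0.19 and 0.18, without the block 0 and 1 were higher (2 and 4 at an unadjusted p), and without 7 d replicate 2, 2 and 1. Among 29 cell cycle genes 4 rose (2 without 7 d replicate 2 and 1 without the block) and 1 fell. Cdkn1a, a cell cycle inhibitor, fell by 1.13 ± 0.12 at its brightest probe set and changed by -0.18 at the other (adjusted p = 0.28), and Bub1b, a spindle checkpoint kinase, rose by 0.81 ± 0.10. The proliferation markers Mki67 and Top2a differed by 0.07 ± 0.11 and -0.10 ± 0.13. Of 21 splicing factor genes 6 fell and 1 rose, and of 17 cell death genes 3 fell and 2 rose. Without the block 0 of either list passed in limma, and at an unadjusted p 1 splicing gene and 3 cell death genes were lower and 2 cell death genes higher. With the actin covariate 0 splicing genes were lower and 1 higher (0 and 2 at an unadjusted p). The median of that list turned from -0.10 to 0.15. Of 31 matrix and wound repair genes 4 rose (1 without 7 d replicate 2 and 1 without the block) and 5 fell, among them Plat, tissue plasminogen activator, with 7.3, 7.36 and 7.11 at 7 d, against 9.2, 9.32 and 9.44 at 2 h. With the actin covariate the heat shock list had 4 genes lower, integrated stress 5, glycolysis 2 and matrix 4. Each had 0 higher (0, 2, 2 and 4 at an unadjusted p). The mitochondrial, ribosomal, cell cycle and cell death lists had 0 calls in that fit. At an unadjusted p it had 5 mitochondrial, 3 ribosomal and 3 cell cycle genes higher, and 1 cell cycle and 3 cell death genes lower.

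**Figure D3:**
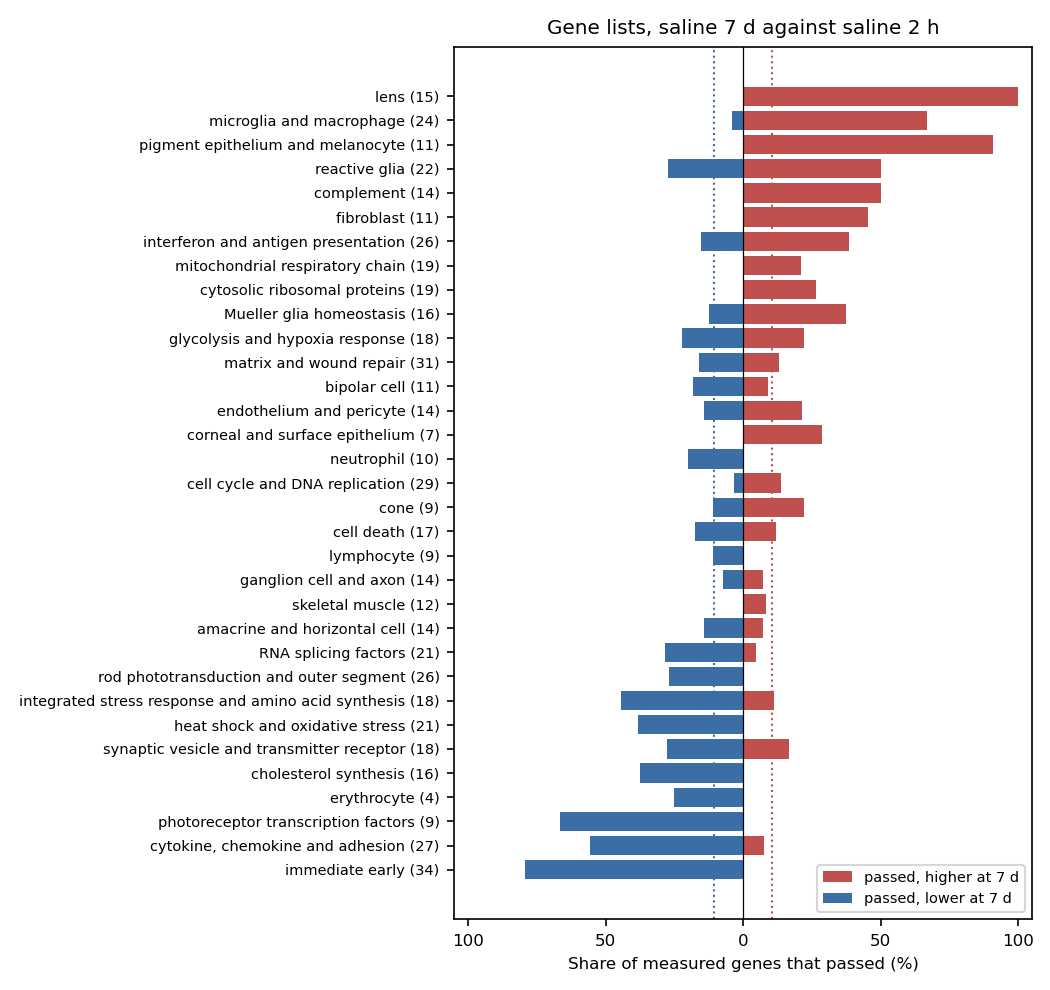
Share of the measured genes of each list (number in brackets) that passed as higher (to the right) or lower (to the left) at 7 d than at 2 h in saline-detached retina, in percent, with dotted lines at the 10.5% of all genes that passed in either direction. Lens, pigment epithelium and microglia lists lie farthest to the right, and the immediate early list, with 27 of 34 genes lower, farthest to the left.

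Markers of tissues next to the retina moved with time. All 15 measured lens genes rose (14 without the block, 10 with the actin covariate), and the mean log2 signal of the list was 11.42 to 11.54 in the 7 d arrays, against 10.45 to 10.59 in the 2 h arrays. Crygd, a gamma crystallin of lens fibres, had 11.77, 11.85 and 11.82 at 7 d, against 9.89, 10.12 and 10.32 at 2 h, a rise of 1.70 ± 0.11 or 3.26-fold (adjusted p = 6.5e-10). Cryga had 8.67, 9.19 and 8.94 at 7 d, against 7.18, 7.09 and 6.87 at 2 h. Cryaa, the small heat shock crystallin of lens that retina can also make, rose by 0.28 ± 0.09 (adjusted p = 0.03, and 0.17 without the block). Of 11 pigment epithelium and melanocyte genes 10 rose (6 without the block, 7 without 7 d replicate 2 and 5 with the actin covariate), with list means of 8.4 to 8.88 at 7 d, against 7.77 to 8.02 at 2 h. Rpe65, the isomerase of the visual cycle, had 8.96, 9.23 and 9.03 at 7 d, against 8.04, 7.95 and 7.93 at 2 h. Ttr, a carrier of thyroid hormone and retinol complexes, rose by 1.40 ± 0.10, Tyr, the melanin enzyme tyrosinase, by 1.25 ± 0.17, and Rgr, a retinal photoisomerase, by 1.20 ± 0.10. The other probe sets of Tyr rose by 0.65 ± 0.12 and 0.33 ± 0.09. Of 11 fibroblast genes 5 rose (3 without 7 d replicate 2, 2 without the block and 0 with the actin covariate), with Pdgfra, a growth factor receptor that retinal astrocytes also carry, at 1.00 ± 0.15, and list means of 6.78 to 7.03 at 7 d, against 6.55 to 6.65 at 2 h. Of 14 endothelial and pericyte genes 3 rose and 2 fell (2 and 0 without the block, 1 and 0 with the actin covariate), and of 4 red cell genes 1 fell. That gene, Alas2, which starts haem synthesis in red cell precursors, fell by 2.61 ± 0.12. Skeletal muscle and corneal epithelium had 1 of 12 and 2 of 7 genes higher (0 and 0 with the actin covariate, 0 and 1 there at an unadjusted p). How much lens, pigment epithelium or fibroblast tissue each pool held, and its part in the changes above, was not tested.

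Several of the largest increases differed between the probe sets of a gene. Top2b, a topoisomerase of non-dividing cells, had 5.86, 7.76 and 7.84 at 7 d, against 4.44, 5.03 and 5.54 at 2 h, on a probe set that rose by 2.15 ± 0.17, whereas its other probe sets changed by 0.87 ± 0.11 and, at the brightest, -0.17 ± 0.13. Norad, a long noncoding RNA that binds Pumilio proteins, had 4.34, 7.05 and 7.51 at 7 d, against 4, 4.33 and 4.2 at 2 h, so that replicate 1 barely moved, and its brightest probe set differed by -0.27 ± 0.10. Aplp2, a relative of the amyloid precursor protein, rose by 1.77 ± 0.13 on 1 of 5 probe sets and fell by 0.28 ± 0.10 on another. Dnm1l, the mitochondrial fission GTPase, rose by 1.87 ± 0.22 on one probe set and differed by 0.01 ± 0.10 on its brightest. Mbd1, a methyl-CpG binding protein, was lower on all 5 of its probe sets, with changes of -2.72 to -0.58. Among genes with more than 1 probe set and a rise of at least 1, all probe sets rose in 35 of 129 (27.1%), and the brightest made the call in 22 (17.1%). Among those with a fall of at least 1, all fell in 38 of 66 (57.6%), and the brightest made the call in 44 (66.7%).

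The 24 h arrays show when the difference between 7 d and 2 h was reached. Of the 172 probe sets with a large decrease, 110 had a 24 h mean nearer to 7 d and 36 one beyond it, and 24 lay nearer to 2 h and 2 at or beyond 2 h. Of the 213 with a large increase, 85 lay nearer to 7 d, 94 beyond it, 29 nearer to 2 h and 5 at or beyond 2 h. Maff and Prph2 were near their 7 d level by 24 h: Maff had means of 9.89 at 2 h, 5.6 at 24 h and 5.46 at 7 d, and Prph2 had 10.08, 7.99 and 7.77 in the same order. Ccl2 and Atf3 fell in steps, with Ccl2 at 8.88, 7.33 and 6.09 and Atf3 at 10.46, 8.99 and 7.59. Several genes of the reactive glia list were highest in between: Edn2 had 6.72 at 2 h, 10.13 at 24 h and 9.09 at 7 d, Lcn2 had 7.51, 10.5 and 8.67, and Gfap had 7.47, 8.64 and 7.94. Macrophage genes came late, with Lyz2 at 6.71, 7.66 and 9.78, C1qa at 6.85, 7.45 and 8.9, and Csf1r at 8.3, 8.07 and 9.86, as did Aqp4 at 7.98, 8.14 and 9.38. Another course was a low point at 24 h, which the 7 d against 2 h values do not show: Glul had 11.64 at 2 h, 10.37 at 24 h and 11.46 at 7 d, Rlbp1 had 9.62, 8.64 and 9.72, and Opn1sw had 11.2, 9.64 and 10.83. These courses are means of 3 arrays a time, and the steps through 24 h carry no test here.

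**Figure D4:**
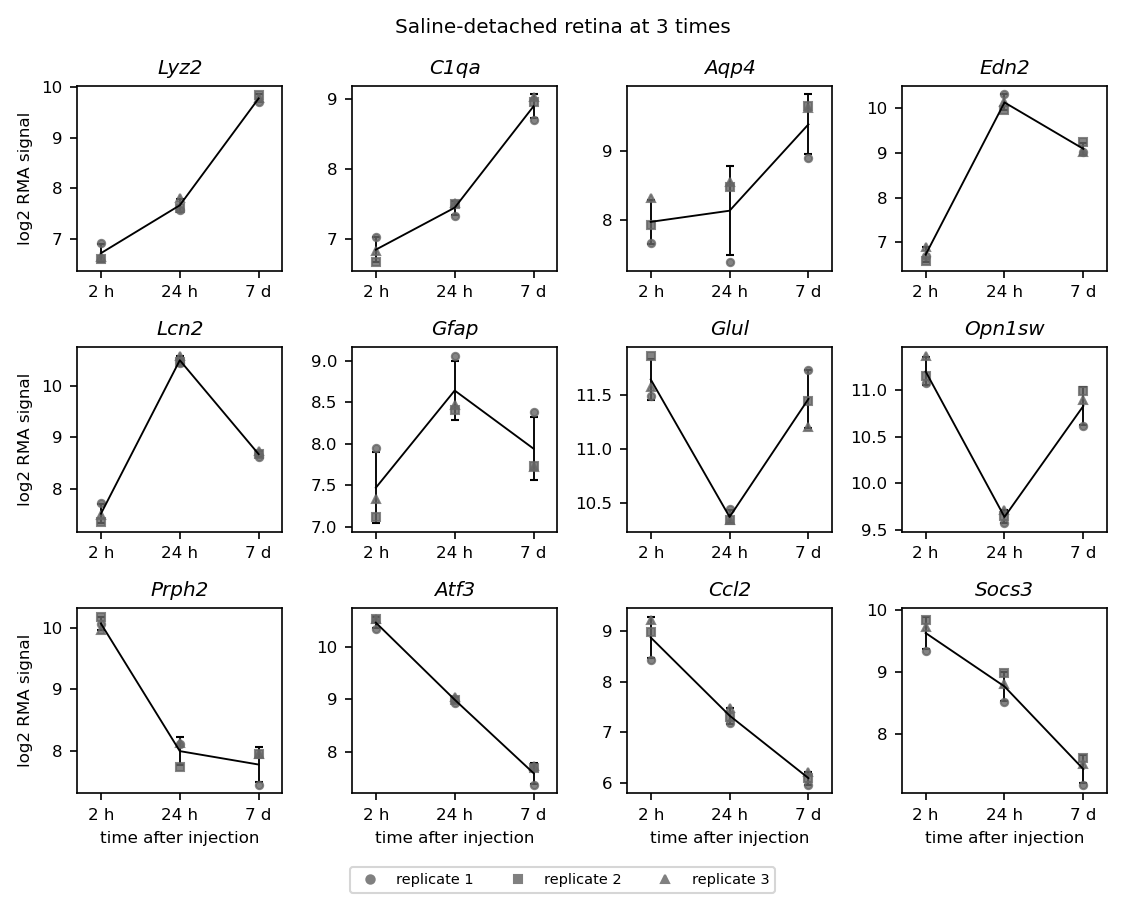
Log2 RMA signal of 12 genes in saline-detached retina at 2 h, 24 h and 7 d after injection, with points for arrays shaped by replicate number and lines and bars for the mean and SD of 3 arrays. Lyz2, C1qa and Aqp4 climb mostly after 24 h, Edn2, Lcn2 and Gfap peak at 24 h, Glul and Opn1sw dip at 24 h, and Prph2, Atf3, Ccl2 and Socs3 are lowest at 7 d.

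The same interval was measured in retinas detached with INS37217, on other arrays, although 5 of those 6 have a source name that says saline. Both comparisons come from 1 fit and share its block terms and its estimate of the spread, so they are not independent. There 4047 probe sets passed (17.9%), 2083 higher (9.21%) and 1964 lower (8.68%). Of the 2776 saline increases 1366 also rose there, which is 49.2% of the saline list and 65.6% of the 2083 that rose with INS37217. Of the 2170 saline decreases 1245 also fell, 57.4% and 63.4% of the saline and the INS37217 list, and 1 and 8 passed in the opposite direction. Of the 213 large saline increases 193 passed as higher with INS37217, and 66 (31%) did so with a change of at least 1. Of the 172 large decreases 166 passed as lower, and 134 (77.9%) with a change of at least 1. Prph2 changed by -2.31 with saline and -3.12 with INS37217, Maff by -4.43 with saline and -4.44 with INS37217, and Fos by -3.15 with saline and -2.80 with INS37217. C1qa rose by 2.05 with saline and 2.26 with INS37217, Edn2 by 2.38 with saline and 2.07 with INS37217, and Lyz2 by 3.07 with saline and 4.42 with INS37217. The difference between the treatments' changes passed at 189 probe sets (0.835%), and the named ones are given in the closing section.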

How the data were processed

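The authors deposited log2 signals per probe set, made with RMA per the submitters' processing notes. The RMA release is not stated there. Of 22690 probe sets 64 control probe sets were left out. GEO's platform annotation gave 20380 of the rest 1 gene, 691 several and 1555 none, and probe sets with several or none were tested but not named. RMA values carry no detection call, and 3 arrays a group limit the precision.

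Groups were taken from the titles. A linear model of all 18 arrays, with 6 groups and the replicate number as a fixed block, was fitted in limma 3.58.1 (R 4.3.3) with empirical Bayes moderation. Benjamini-Hochberg adjustment ran over 22626 probe sets. The fit was also run on simulated data with the same additive block and independent noise, which cannot test whether that block suits the arrays. Same-numbered arrays deviated together from their group means (correlations of 0.426 to 0.921 over 45 pairs), so the numbers were taken to pair the samples. Replicates 2 and 3 also deviated together and against replicate 1: 7 d replicate 2 correlated at 0.608 with 2 h replicate 2 and at 0.72 with 2 h replicate 3, and 7 d replicate 3 at -0.577 with 2 h replicate 1. The p-values measure the spread between pools that is left after the replicate number is taken out, estimated over all 18 arrays.

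The members and the 33 gene lists were chosen with earlier results of these data known. Named genes were up to 15 a direction with the largest change among probe sets that passed with groups apart, up to 5 of each list that passed, and a short fixed set: 160 entries for 159 genes, 155 of which passed. Lists count the probe set of highest mean per gene. Genes outside that rule, chosen after their values were seen, were Arc, Btg2, Dusp1, Jun, Junb, Klf4, Egr2, Gnat1, Sag, Rcvrn, Rom1, Cd14, P2ry12, Cxcl10, Cxcl16, Nfkbia, Vcam1, Mki67 and Top2a, and those said not to have passed. Alternatives were the fit without the block, the 6 arrays alone, re-normalization, a level filter, probe set means, an actin covariate and omitted arrays.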

Additional observations from a re-analysis of the deposited data

Results flagged for a closer look

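For 20 of the named probe sets the change between 7 d and 2 h differed between saline and INS37217 in limma's interaction test. Many named probe sets were chosen for a large saline change, which favours a saline change larger than the one with INS37217. The mean actin gap was 1.04 at 2 h and 0.65 at 7 d with saline, against 0.75 and 0.60 with INS37217. Its part in these differences was not tested. Values are the saline change minus the INS37217 change on the log2 scale, so a negative one means a smaller rise or a larger fall with saline. Macrophage and antigen presentation genes had -1.41 (Lyz1), -1.35 (Lyz2), -1.04 (B2m) and -0.87 (Ctss). Genes of matrix and contractile cells had -1.59 (Ccn2), -1.56 (Tagln), -1.50 (Dcn) and -1.23 (Ccn1), Ccn2 and Tagln being lower at 7 d with saline (-0.94 and -0.56) and higher with INS37217 (0.65 and 1.00). Alas2 had -1.43, Nr4a1 -0.92 and Aldh18a1, a proline synthesis enzyme, -0.72. Lens genes ran the other way, with 1.07 (Crygd), 1.02 (Bfsp1), 1 (Cryga) and 0.76 (Crygb), as did the pigment epithelium genes Rgr at 0.77 and Rpe65 at 0.71. Top2b had 1.40, Aplp2 0.99 and Rnf14, a ubiquitin ligase, 0.88, each at the probe set with the gene's largest rise.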

How the results depend on the processing

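Of 4946 probe sets that passed, 1231 (611 higher, 620 lower) passed in the fit without the replicate block, where 1110 passed with INS37217 and 20 in the interaction. With the 6 arrays alone and no block 315 passed (113 higher, 202 lower), with the actin gap as a covariate 515 (261 higher, 254 lower), with probe sets averaged per gene 2790 of 12393 genes (1508 higher, 1282 lower), and with a change of at least 1 required 385 (213 higher, 172 lower). Leaving out 1 array gave 3307 to 4805 in all, 1774 to 2836 higher and 1437 to 2063 lower. The increases came to 1776 without 7 d replicate 2 and 1774 without 2 h replicate 2, and the decreases to 1437 without 2 h replicate 3. On replicates 2 and 3 alone the interaction passed at 310. Equal array medians turned the split to 2405 higher and 2615 lower. Of 155 named entries that passed, 88 did so without the block and 123 in all 6 omissions. Signs turned for Arr3 (-0.03; 0.28 with the actin covariate, and -0.13 to 0.05 over the 6 omissions, with 0.02 without 7 d replicate 1, 0.01 without 7 d replicate 3 and 0.05 without 2 h replicate 3), P2ry2 (0.11; -0.03 with the actin covariate), Glul (-0.18; 0.22 as a mean of probe sets) and Stard4 (-0.40; 0.08 as a mean of probe sets). For these shifts the cause was not tested, beyond the fewer arrays or genes in the omissions and the averaged table.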
